A study of Mus musculus with 9 samples.

Results

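Npas4, the gene of neuronal PAS domain protein 4, was measured by 1 probe (A_51_P433810) of the 41174 probes on the array. The probe was found through its RefSeq identifier (NM_153553), and no other probe matched the gene. Npas4 was chosen by its measured values, for a far larger difference from control under KCl than under bicuculline, so its own levels are described here with no test.

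NPAS4 is a transcription factor of the bHLH-PAS family, whose members bind DNA as pairs. It pairs with ARNT2 or ARNT. In neurons the gene is switched on by calcium entry after depolarisation, without new protein synthesis, and its product regulates genes such as Bdnf and the number of inhibitory synapses that excitatory neurons receive.

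Cortical neurons from embryonic day 15 C57bl/6 mice were cultured for 12 days, and the 9 arrays came from 3 groups of 3. The control cultures were untreated. The bicuculline cultures received 25 µM of this GABA-A receptor blocker for 6 h, and the KCl cultures received 50 mM KCl, which depolarises the membrane, for 6 h. The labels do not say how long the controls were kept beside the treated cultures or whether replicate arrays came from different cultures, so p-values measure the spread between arrays, which may be technical. These were whole cultures, in which fewer cells of a type and less RNA per cell cannot be told apart.

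The 75th percentile of processed signal ranged from 1586 to 3087 between arrays, and the software placed 65.0% to 75.9% of non-control spots well above background. All 10 neuron markers were well above background on the 9 arrays, as were the 7 astrocyte and the 7 oligodendrocyte markers and 5 of 7 vascular markers. Of the microglia markers, 5 of 7 were. The defining genes Tmem119, P2ry12, Cldn5 and Pecam1 did not pass the filter on dim probes. With signals scaled to the 75th percentile of each array, summed neuron marker signal was 146.1 to 156.4 on the control arrays, 142.6 to 151.5 under bicuculline and 155.5 to 163.7 under KCl. Summed vascular marker signal was 13.2 to 14.5, 12.5 to 14.5 and 29.1 to 33.4 in that order, and summed astrocyte marker signal was 122.5 to 134.9, 123.2 to 126.5 and 142.8 to 149.997. The summed oligodendrocyte markers lay at 30.7 to 31.9, 28.9 to 30.6 and 34.3 to 35.2, and the microglia markers at 2.11 to 2.19, 1.70 to 2.58 and 2.31 to 3.42. Vascular, astrocyte and oligodendrocyte sums were thus higher on every KCl array than on every other array, and their part in the results below was not tested. The arrays lay on 3 slides. Slide 1 held control 1 and 2 with bicuculline 1 and 2, slide 2 held control 3, bicuculline 3 and KCl 1 and 2, and slide 3 held KCl 3 alone.

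The stretch before the start of Npas4 is shown because the gene responds to membrane activity, and the cAMP and calcium response element (CRE) is the site through which CREB acts on many such genes. The sequence is the 250 bases upstream of the RefSeq start, from assembly GRCm38.p6, chr19:4989972-4990221 on the minus strand, read 5′ to 3′. The genes next below Npas4 in the order of KCl minus bicuculline were Smad9, Nr4a3 and Ptger4. Of these, only the stretch before Nr4a3, a nuclear receptor gene, is shown, from chr4:48045055-48045304 on the plus strand. Capitals mark the CRE's 5-base core (TGACG or, on the other strand, CGTCA), its 7-base extension (TGACGTC or GACGTCA) and a TATA-like run (TATATAA).
Npas4: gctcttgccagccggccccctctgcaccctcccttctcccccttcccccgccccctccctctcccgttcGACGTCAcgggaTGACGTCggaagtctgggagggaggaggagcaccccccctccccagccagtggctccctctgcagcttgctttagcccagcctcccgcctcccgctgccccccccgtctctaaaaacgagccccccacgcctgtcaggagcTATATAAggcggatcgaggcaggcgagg
Nr4a3: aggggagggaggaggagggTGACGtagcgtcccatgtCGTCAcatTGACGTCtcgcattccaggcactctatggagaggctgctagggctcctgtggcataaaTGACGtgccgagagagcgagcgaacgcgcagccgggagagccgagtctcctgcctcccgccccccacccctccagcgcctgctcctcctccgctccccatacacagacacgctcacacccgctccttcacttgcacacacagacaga

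The Npas4 stretch held the 7-base CRE extension at 2 places, starting 181 and 169 bases before the gene's start, and each match also holds the 5-base core. TATATAA lay 28 bases before the start, and a GC box (GGGCGG on the other strand) lay 203 bases before it. The 8-base CRE TGACGTCA, the AP-1 site TGANTCA, the E-box CACGTG, the core TCGTG bound by NPAS4 with ARNT, and the CArG box had 0 matches on both strands of the 300 bases searched, from 250 before to 50 after the start. Among 32851 RefSeq promoters of the same length, 3.21% held TGACGTC, 20.8% TGACG, 1.79% TGACGTCA, 3.24% TATATAA, 35.7% GGGCGG, 7.81% TGANTCA, 7.15% CACGTG, 16.0% TCGTG and 1.63% a CArG box. At least 2 matches to TGACGTC were found in 1.82%, where a single palindromic TGACGTCA counts as 2 overlapping matches. G and C made up 68.8% of the Npas4 stretch and 63.6% of that of Nr4a3. The Nr4a3 stretch held 4 copies of the 5-base core, 1 of them extended to 7 bases, and at least 4 copies were found in 0.231% of all promoters. In the 300 bases searched, Smad9 held 1 copy of the core and Ptger4 held 0, and neither held the 7-base extension. Nr4a1 and Nr4a2 also held 4 copies of the core each, with KCl only 1.21 and 1.15 log2 units above bicuculline. A match describes letters in this window and is not a measured binding site.

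On the control arrays, the Npas4 probe had a processed signal of 1391, 720 and 1113 in replicates 1, 2 and 3. Under bicuculline the signal was 1259, 1675 and 1603. Under KCl it was 15106, 13124 and 13271. Before any scaling the KCl arrays thus lay far above the other 6, while control 1 lay above bicuculline 1. The probe was well above background on 9 of 9 arrays, and none of its spots was marked as an outlier. The raw spot signal was 21.2 to 39.4 times the local background on the control arrays, 40.6 to 57.2 times under bicuculline and 385 to 445 times under KCl, so all levels were clear of the background.

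Relative to the 75th percentile of its array, Npas4 signal was 45.1%, 39.9% and 42.3% on the control arrays, with a mean of 42.4% ± 2.58 (SD, n = 3). Under bicuculline it was 69.8%, 84.0% and 78.2%, with a mean of 77.3% ± 7.14 (SD, n = 3). Under KCl it was 899.96%, 805.9% and 836.6%, with a mean of 847.5% ± 47.95 (SD, n = 3). After scaling the 3 groups did not overlap, in the order control, bicuculline, KCl, and each step between neighbouring groups exceeded the spread within them. On the log2 scale, where 0 is the 75th percentile of the array, the group means were -1.24 ± 0.088, -0.38 ± 0.13 and 3.08 ± 0.081 (SD, n = 3).

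**Figure D1:**
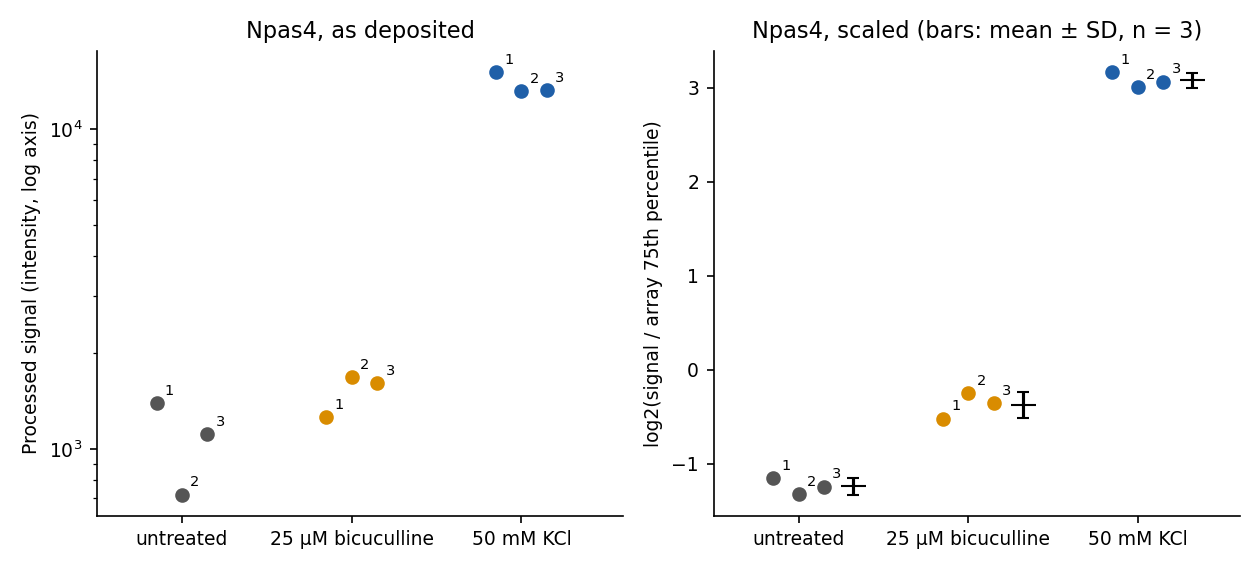
Npas4 signal on each of the 9 arrays, as deposited (left, log axis) and scaled to the 75th percentile of the array (right, log2), with points numbered by replicate and bars for the mean and SD of 3 arrays. As deposited, control 1 at 1391 lies above bicuculline 1 at 1259; after scaling the 3 groups are separate, with means of -1.24, -0.38 and 3.08.

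The mean of Npas4 under bicuculline lay 0.86 log2 units above control, or 1.82-fold (limma SE 0.078). The closest pair of arrays differed by 0.63 and the farthest by 1.07. Under KCl the mean lay 4.32 log2 units above control, a 19.99-fold difference, with single pairs of arrays between 17.9-fold and 22.6-fold. KCl lay 3.46 log2 units above bicuculline, or 10.98-fold, with pairs from 9.60-fold to 12.9-fold. On the scaled linear signal, the bicuculline increment was 4.34% of the KCl increment. Without scaling, the ratios of mean processed signal were 1.41 for bicuculline over control, 12.9 for KCl over control and 9.15 for KCl over bicuculline, so each ratio was smaller without the scaling.

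Within slide 1, bicuculline lay 0.85 log2 units above control (2 arrays against 2), and within slide 2 the difference was 0.89 (1 against 1). Within slide 2, KCl lay 4.33 above control (2 against 1) and 3.44 above bicuculline. These are within 0.03 of the differences over all arrays. Slide 3 held only KCl 3, so it gives no comparison of its own.

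Across 14070 genes tested, Npas4, which was chosen for its values in these groups, had the largest difference between KCl and bicuculline. It stood at place 14 in the order of KCl minus control and at place 336 in that of bicuculline minus control. The 13 genes with a larger measured KCl difference from control were Lce1g, Serpinb2, Lce1i, Lce1f, Nr4a3, Areg, Fosb, Ifi202b, Gpr171, Gja6, Hspb3, Fos and Cartpt, and 6 of them (Lce1g, Lce1f, Nr4a3, Areg, Ifi202b and Gpr171) were well above background on 0 control arrays. For these 6 only bounds can be given, from at least 1.81-fold (Ifi202b) to at least 96.7-fold (Lce1g) over control under bicuculline and from at least 7.10-fold (Gpr171) to at least 72.7-fold (Lce1g) under KCl, where only the bound of Lce1g exceeds the 19.99-fold of Npas4. The other 7 lay 2.64 to 6.92 log2 units above control under bicuculline with a median of 4.13, against 0.86 for Npas4. Both ends of that range, Gja6 and Lce1i, were well above background on only 1 of 3 control arrays. Those well above background on all 3 (Serpinb2, Fosb, Hspb3, Fos and Cartpt) lay 2.76 to 5.89 above control. At least 4-fold above control under KCl, and well above background on all 3 control arrays, were 88 genes, whose median bicuculline difference was 1.59 log2 units. Of these, 20, Npas4 among them, were less than 2-fold above control under bicuculline. Both treatments were compared with the same 3 control arrays.

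Because Npas4 led the order of KCl minus bicuculline, no gene stood above it, and the next below it were Smad9, Nr4a3 and Ptger4. Smad9, which encodes a signalling protein of the BMP pathway, had scaled log2 values of -2.52, -5.04 and -5.35 under KCl and was not well above background on any control or bicuculline array. It was at least 3.98-fold higher under KCl than under bicuculline (measured log2 difference 3.27 ± 0.71 SE), and KCl 1 stood apart from the other KCl arrays. Nr4a3 had values of -5.31, -5.13 and -4.98 under bicuculline and -2.07, -2.19 and -2.19 under KCl, and was not well above background on any control array. It rose from bicuculline to KCl by 2.99 ± 0.26, and was at least 2.04-fold above control under bicuculline and at least 16.2-fold under KCl. Ptger4, a prostaglandin E2 receptor gene, was dim on all control and bicuculline arrays and at least 3.12-fold higher under KCl than under bicuculline (2.88 ± 0.31). No p-value is given for Smad9, Nr4a3 and Ptger4, since this same order picked them. Smad9 and Ptger4 passed the filter on dim probes only through the KCl arrays, where they were high. A bound ("at least") sets each dim array to the lowest signal that the software placed well above background there, or to the probe's own value where that was higher. Of these 4 genes, only Npas4 was well above background in all 3 groups.

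Npas4 kept place 1 in the order of KCl minus bicuculline in 19 of 24 alternative analyses, all of the same data from which it was chosen. It was at place 2 with no filter on dim probes (Olfr768 above it), with outlier spots kept (Nudt16l2), and without bicuculline replicate 3 or KCl replicate 2 (Smad9). Without KCl replicate 3 it was at place 7, below Olfr768, Mixl1, Btn2a2, Smad9, Krtap13 and B3gnt8. Each of these genes was well above background on at most 1 bicuculline array and on 0 control arrays.

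**Figure D2:**
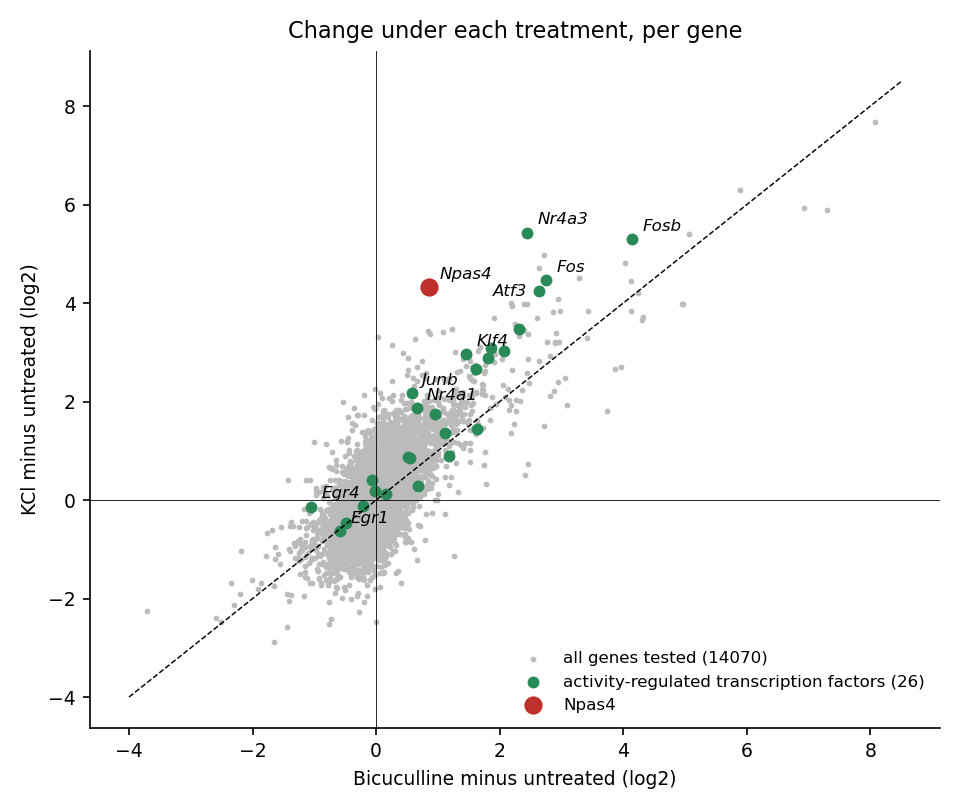
Difference from control under KCl (vertical) against that under bicuculline (horizontal), both in log2, for 14070 genes (grey), 26 activity-regulated transcription factor genes (green) and Npas4 (red); both axes share the control arrays, and the dashed line marks equal differences. Npas4 stands at 0.86 and 4.32, farther above the dashed line than any other gene tested.

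In the KCl comparisons, the partners of NPAS4 and the other bHLH-PAS genes differed far less than Npas4, which was chosen for its large KCl difference. Under bicuculline, where Npas4 differed by 0.86, the family ranged from -0.62 to 0.79. In the fit over all genes, 44.4% of genes were called between bicuculline and control, 71.8% between KCl and control and 64.8% between KCl and bicuculline (limma, adjusted p under 0.05). Of 15 family members, 12 passed the filter on dim probes, and Npas3, Sim1 and Sim2 did not. Under bicuculline 1 of the 12 was called higher (17.4% of all genes were) and 3 lower (27.0% of all), with a median difference of -0.06 against -0.03 over all genes. With the replicate number as a block in the control and bicuculline arrays alone, 8 of the 12 were called in place of 4, where 46.3% of all genes were. Under KCl 6 were called higher (35.8% of all genes) and 3 lower (36.0% of all), with a median of 0.12 against 0.02. Between KCl and bicuculline 5 were called higher (36.1% of all genes) and 1 lower (28.8% of all), with a median of 0.11 against 0.07. With no block, the calls in the family were 4, 9 and 6 of 12.

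Arnt2, the brain-enriched partner of NPAS4, had scaled log2 values of 0.89, 0.60 and 0.79 in control, 0.75, 0.47 and 0.59 under bicuculline, and 0.87, 0.83 and 0.84 under KCl. The 3 control and 3 KCl values overlapped, and neither treatment gave a call against control (-0.15 ± 0.09, limma adjusted p = 0.21, and 0.09 ± 0.09, adjusted p = 0.39). With the replicate block in the 6 arrays of control and bicuculline, the difference of -0.15 was called (limma adjusted p = 0.025). Its difference of 0.24 between KCl and bicuculline passed (limma adjusted p = 0.043), but that call was lost in 14 of 24 alternatives, including each removal of a KCl array. Arnt, the broadly expressed partner, had values of -0.82, -0.87 and -0.73 in control, -0.68, -0.65 and -0.72 under bicuculline and -0.49, -0.54 and -0.61 under KCl. It was called higher under KCl by 0.26 ± 0.05 (limma adjusted p = 0.0014), a call lost with median scaling (0.10) and with spike-in scaling (0.03), and the value was -0.33 with no scaling. Another Arnt probe differed by 1.11 between KCl and control, so its probes disagree on the size.

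Ahr, which encodes the ligand-activated aryl hydrocarbon receptor, had the largest called difference in the family under bicuculline. Its values were -0.29, -0.30 and -0.28 in control, 0.46, 0.53 and 0.51 under bicuculline and 0.37, 0.37 and 0.30 under KCl. It rose by 0.79 ± 0.03 under bicuculline (limma adjusted p = 1.3e-06) and by 0.63 ± 0.03 under KCl (1.1e-06), so the order of the treatments was opposite to that of Npas4. Hif1a, the oxygen-sensitive subunit of hypoxia-inducible factor 1, fell by 0.34 under bicuculline and by 0.35 under KCl (limma adjusted p = 0.0033 and 0.0014). Clock, a core component of the circadian clock, fell by 0.18 under each. Hif3a fell by 0.43 under bicuculline (limma adjusted p = 0.014) but lay at 0.04 with normexp background correction, and another Hif3a probe gave 0.13.

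Npas1, a relative of Npas4 that acts as a repressor, was called higher under KCl by 0.40 ± 0.04 (limma adjusted p = 2.2e-05) and differed by 0.02 under bicuculline; its KCl value was -0.18 with no scaling. Npas2, Epas1 and Arntl were called higher under KCl by 0.27, 0.10 and 0.13, and each lay below control under at least 1 other scaling. Arntl2 was called lower under KCl (-1.22 ± 0.48, limma adjusted p = 0.047), but it was well above background on only 1 bicuculline and 1 KCl array. That call was lost without any 1 of the control or bicuculline arrays, and the difference was 0.99 with normexp and 75th-percentile scaling. Of the 12 members, Ahr and Arntl2 had the largest called differences, and both were below 1.5 log2 units in size. Npas4 differed by 4.32 under KCl but by only 0.86 under bicuculline, close to the 0.79 of Ahr there.

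**Figure D3:**
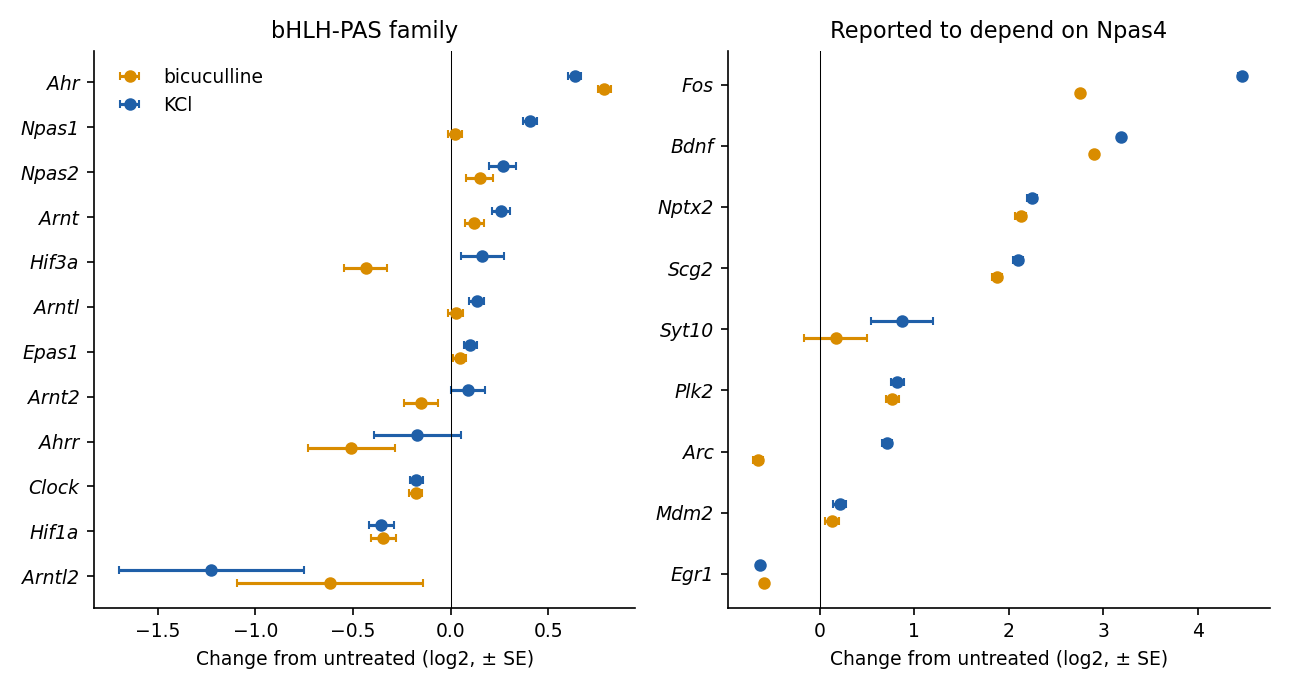
Difference from control in log2 with limma standard errors (3 arrays a group) under bicuculline (orange) and KCl (blue) for the 12 tested bHLH-PAS family members (left) and 9 genes reported to depend on Npas4 (right), with different horizontal ranges. The family lies between -1.22 and 0.79, while Fos reaches 4.47 and Bdnf 3.19 under KCl.

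Of 9 genes that earlier work in neurons ties to NPAS4, all passed the filter. Under bicuculline 5 were called higher (Bdnf, Nptx2, Plk2, Scg2 and Fos) and 2 lower (Arc and Egr1), with a median of 0.77. Under KCl 8 were called higher and Egr1 lower, with a median of 0.87. Between KCl and bicuculline 4 were called higher (Bdnf, Scg2, Arc and Fos) and 0 lower, with a median of 0.22. Among all genes, 17.4% were called higher and 27.0% lower under bicuculline, and 35.8% and 36.0% under KCl. Between KCl and bicuculline the shares were 36.1% and 28.8%. The medians of all genes were -0.03, 0.02 and 0.07 in that order. The list was chosen with results of these data known, and most of these genes respond to other activity-dependent factors too, so it is no independent measure of NPAS4.

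Bdnf, a neurotrophin gene, had scaled log2 values of 1.19, 1.18 and 1.24 in control, 4.12, 4.08 and 4.11 under bicuculline and 4.37, 4.39 and 4.41 under KCl. Both treated groups lay far above control, and the gap between them was small. It rose 7.46-fold under bicuculline (2.90 ± 0.03, limma adjusted p = 4.5e-09) and 9.12-fold under KCl (3.19 ± 0.03, 7.1e-10). The difference of 0.29 between the treatments (limma adjusted p = 8.2e-05) was not called with normexp and 75th-percentile scaling (0.10), with spike-in scaling (0.06) or with no scaling (0.04). Another Bdnf probe rose by 2.41 and 2.63.

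Nptx2, which encodes a secreted pentraxin that clusters AMPA receptors, had values of -1.69, -1.74 and -1.74 in control, 0.32, 0.48 and 0.42 under bicuculline and 0.45, 0.62 and 0.50 under KCl. It rose 4.37-fold and 4.74-fold, and the treatments overlapped (0.12 ± 0.06, limma adjusted p = 0.10). Scg2, which encodes the neuropeptide precursor secretogranin II, rose by 1.88 under bicuculline and by 2.10 under KCl (limma adjusted p = 2.1e-07 and 4.3e-08). Its difference of 0.22 between them was not called in 7 of the 24 alternatives and had the opposite sign with spike-in scaling and with no scaling. Plk2, a kinase gene of homeostatic synaptic scaling, rose by 0.77 and 0.82, with a difference of 0.05 ± 0.07 between the treatments (limma adjusted p = 0.52). Between the treatments these 4 genes (Bdnf, Nptx2, Scg2 and Plk2) thus differed by 0.05 to 0.29 log2 units. The rest of the list was mixed, with 1.71 for Fos, 1.36 for Arc, 0.70 for Syt10, 0.08 for Mdm2 and -0.04 for Egr1. Another Syt10 probe gave -0.74. Npas4 differed by 3.46, but it was chosen for that difference, so the 4 genes do not stand for the list beside it.

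Fos, an AP-1 subunit gene, had values of 0.22, 0.26 and 0.31 in control, 2.99, 3.01 and 3.06 under bicuculline and 4.70, 4.74 and 4.76 under KCl. It rose 6.76-fold under bicuculline and 22.1-fold under KCl, and the step from bicuculline to KCl was 1.71 ± 0.04 (limma adjusted p = 3.1e-07). Fos thus had a KCl difference close to that of Npas4, with a bicuculline difference of 2.76 against 0.86. Arc, which encodes a synaptic protein of AMPA receptor traffic, had values of 0.59, 0.56 and 0.63 in control, -0.02, -0.09 and -0.07 under bicuculline and 1.19, 1.39 and 1.32 under KCl. It fell by 0.65 under bicuculline (limma adjusted p = 3.9e-05) and rose by 0.71 under KCl (7.6e-06), where the rise was not called with no scaling (0.12). Egr1, a zinc finger factor gene, fell by 0.59 and by 0.63 (limma adjusted p = 6.0e-06 and 1.1e-06). Syt10, whose product controls release of IGF-1 vesicles, lay 0.87 ± 0.33 above control under KCl (limma adjusted p = 0.044), a call lost in 13 of 24 alternatives, with values of 0.60 without control 1 and 0.25 with the slide as a block. Another Syt10 probe gave -0.07 under KCl and 0.67 under bicuculline, so its probes disagree in direction. Mdm2 rose by 0.21 under KCl (limma adjusted p = 0.033), a call lost in 10 of 24 alternatives. The difference was -0.02 with spike-in scaling and -0.38 with no scaling.

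The route from calcium entry to transcription was followed with 29 genes, of which 28 passed and Crtc1 had no matched probe. Under bicuculline 5 were called higher and 6 lower, with a median of -0.02. Under KCl 13 were called higher and 5 lower, with a median of 0.12, and between KCl and bicuculline 14 were called higher and 3 lower, with a median of 0.14. The 11, 18 and 17 of 28 called stand beside 44.4%, 71.8% and 64.8% of all genes, so they set the list apart in no comparison. These counts move strongly with the processing: with normexp and 75th-percentile scaling 1, 3 and 0 of the 28 were called in the 3 comparisons, in place of 11, 18 and 17. The largest called difference was in Cacna1d, which encodes an L-type calcium channel. It fell by 1.06 ± 0.09 under bicuculline and by 1.67 ± 0.09 under KCl (limma adjusted p = 5.4e-05 and 1.3e-06). With normexp and 75th-percentile scaling its KCl value was -0.89 and was not called. Its probes disagree: another gave -0.67 and 0.29, and another -0.36 and -0.92.

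Among the other genes of that route, Hdac9, a class IIa histone deacetylase that holds MEF2 factors in check, rose by 1.22 under bicuculline and by 1.53 under KCl (limma adjusted p = 6.6e-06 and 5.4e-07). Mef2d, a calcium-regulated factor, rose by 0.50 and by 0.98 (limma adjusted p = 0.012 and 0.00016). Hdac5, of the same class as Hdac9, rose by 0.68 under KCl (limma adjusted p = 4.6e-05) and differed by 0.16 under bicuculline. Camk2a, a calcium- and calmodulin-dependent kinase gene, fell by 0.41 under bicuculline and by 0.25 under KCl (limma adjusted p = 0.0052 and 0.027). Srf, the factor that binds CArG boxes, fell by 0.34 under bicuculline (limma adjusted p = 0.0011) and was 0.46 higher under KCl than under bicuculline (0.00011). All of these differences were smaller than the KCl difference of Npas4, which was chosen by its values and which only 13 genes exceeded. Under bicuculline, where Npas4 differed by 0.86, Hdac9 differed more, by 1.22, as did Cacna1d in the other direction, by -1.06.

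Of 27 other activity-regulated transcription factor genes, 26 passed and Egr3 did not. Under bicuculline 20 were called higher and 4 lower, with a median of 1.04. The 4 were Egr1, Egr4, Bhlhe40 and Myc, named here after their values were seen. Under KCl 22 were called higher and 3 lower (Egr1, Bhlhe40 and Myc), with a median of 1.60, although another Myc probe gave 0.38. Between KCl and bicuculline 19 were called higher and 3 lower (Fosl2, Jun and Ier2), with a median of 0.85. The probes of Fosl2 disagree: the probe used gave -0.18 between KCl and bicuculline, and another gave 1.27 there and 3.34 between KCl and control. The shares called higher among all genes were 17.4%, 35.8% and 36.1%.

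Fosb, an AP-1 subunit gene, rose by 4.14 under bicuculline and by 5.30 under KCl (limma adjusted p = 1.1e-07 and 1.1e-08). Atf3, a stress- and activity-induced factor gene, rose by 2.63 and by 4.24 (limma adjusted p = 1.6e-07 and 6.8e-09). From bicuculline to KCl, Fosb rose by 1.15, Atf3 by 1.61 and Fos by 1.71. Npas4, at 3.46, and Nr4a3, at 2.99, had the largest such steps among these factors. Promoters of the list were in the RefSeq table for 20 genes, of which 15 held TGACG and 4 (Egr2, Maff, Nr4a3 and Per1) held TGACGTC, the 7 bases found at 2 places before Npas4. A gene was counted if any of its promoters matched, and Egr2, Maff and Per1 held TGACGTC in only some of theirs. Over all promoters, counted singly, 20.8% held TGACG and 3.21% TGACGTC, so these shares are not a like measure.

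Genes whose pattern over the 9 arrays was most like that of Npas4 were ranked by Pearson r of scaled log2 values, among the 923 other genes at least 2-fold above control under KCl. The 8 closest were 1700020D05Rik (r = 0.998), Fgd6 (0.997), Soat1 (0.997), Fsd1l (0.997), Junb (0.996), Mpzl3 (0.996), Rnf43 (0.995) and Dpf3 (0.995). The 9 points fall into 3 groups of arrays that share their treatment and scaling, so r describes the shape of the steps between groups and no p is given. An r of at least 0.99 was reached by 50 genes, and of at least 0.9 by 372.

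Through their choice by r, the 8 genes share a small bicuculline difference beside a larger KCl difference. Their amplitudes were lower than that of Npas4, whose KCl difference only 13 genes exceeded. Junb, an AP-1 subunit gene, had values of 3.40, 3.47 and 3.45 in control, 3.99, 4.03 and 4.03 under bicuculline and 5.60, 5.60 and 5.65 under KCl, which are differences of 0.58 and 2.18. Mpzl3 had the largest KCl difference of the 8, with values of -6.08, -6.20 and -6.07 in control, -5.55, -5.68 and -5.57 under bicuculline and -3.34, -3.12 and -3.22 under KCl, and was well above background on 1 of 3 control arrays. Rnf43, which encodes a ubiquitin ligase that restrains Wnt signalling, differed by 0.41 and 2.02. Soat1, the gene of an enzyme that esterifies cholesterol, differed by 0.39 and 1.46, and Fgd6 by 0.29 and 1.52. Dpf3 differed by 0.32 and 1.46, 1700020D05Rik by 0.26 and 1.18 and Fsd1l by 0.17 and 1.02. With no scaling, the bicuculline difference of 1700020D05Rik, Fgd6, Fsd1l and Dpf3 was below 0. Of these 8 genes, 7 had a RefSeq promoter. Counted by gene over any of its promoters, 3 (Fsd1l, Junb and Soat1) held TGACG and 0 held TGACGTC. Of all promoters, counted singly, 20.8% and 3.21% did. The choice of genes moves with the processing: with normexp, 1 of the 8 was still among the closest 8.

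**Figure D4:**
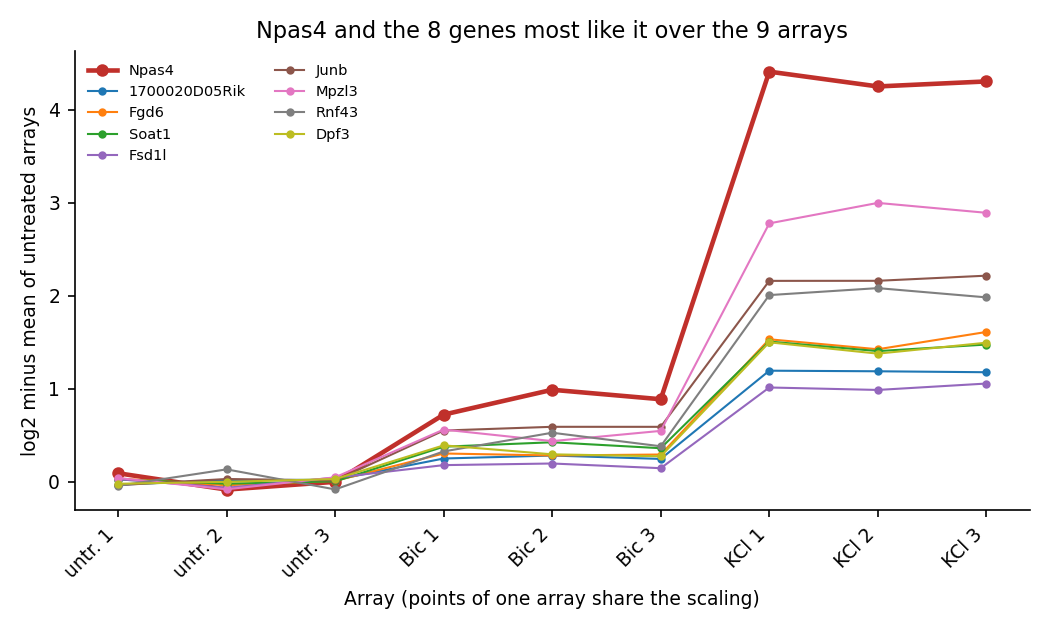
Scaled log2 signal of Npas4 (thick red) and the 8 genes most like it, each minus the mean of its 3 control arrays, on the 9 arrays; lines join the arrays only to guide the eye. All 9 genes step up slightly under bicuculline and further under KCl, a shape for which the 8 were chosen. Npas4 is at 4.32 and the others lie between 1.02 and 2.89 under KCl. With no scaling, 4 of the 8 lie below control under bicuculline.

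The genes beside Npas4 on chromosome 19 were taken from the RefSeq gene order, 5 tested genes on each side. Of these 10, 2 were called higher and 4 lower under bicuculline, 3 higher and 5 lower under KCl, and 3 higher and 3 lower between KCl and bicuculline. Among all genes 44.4%, 71.8% and 64.8% were called, so these counts set the neighbours apart in no comparison. Their differences ranged from -0.30 to 1.11 under bicuculline and from -0.56 to 1.05 under KCl. On one side, in order toward Npas4, Zdhhc24, Bbs1, Dpp3, Peli3 and Mrpl11 differed from control under KCl by -0.56, 0.35, -0.46, 1.05 and -0.13. On the other, moving away, Slc29a2, B4gat1, Brms1, Rin1 and Cd248 differed by -0.38, -0.29, 0.04, 1.01 and 0.19. Another Zdhhc24 probe gave -0.0011 in place of -0.56. The tested genes next to Npas4, Mrpl11 and Slc29a2, were thus both called lower under KCl. No neighbour reached the 4.32 of Npas4, but Npas4 was chosen by its values and only 13 of all genes tested exceeded it.

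Of the neighbours, 2 changed at least 2-fold. Peli3, which encodes a ubiquitin ligase of innate immune signalling, had values of -1.94, -1.84 and -1.91 in control, -1.70, -1.80 and -1.76 under bicuculline and -0.86, -0.99 and -0.70 under KCl. It rose by 1.05 under KCl (limma adjusted p = 5.1e-06) and differed by 0.14 under bicuculline (0.15). Rin1, a gene of a RAS effector enriched in forebrain neurons, had values of -2.08, -1.95 and -1.98 in control, -0.86, -0.91 and -0.91 under bicuculline and -1.10, -0.88 and -0.98 under KCl. It rose by 1.11 under bicuculline and by 1.01 under KCl (limma adjusted p = 5.5e-06 and 2.4e-06), with a difference of -0.10 between them that was not called (0.18). With no scaling, the KCl rises of Peli3 and Rin1 were 0.46 and 0.43 and were not called.

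**Figure D5:**
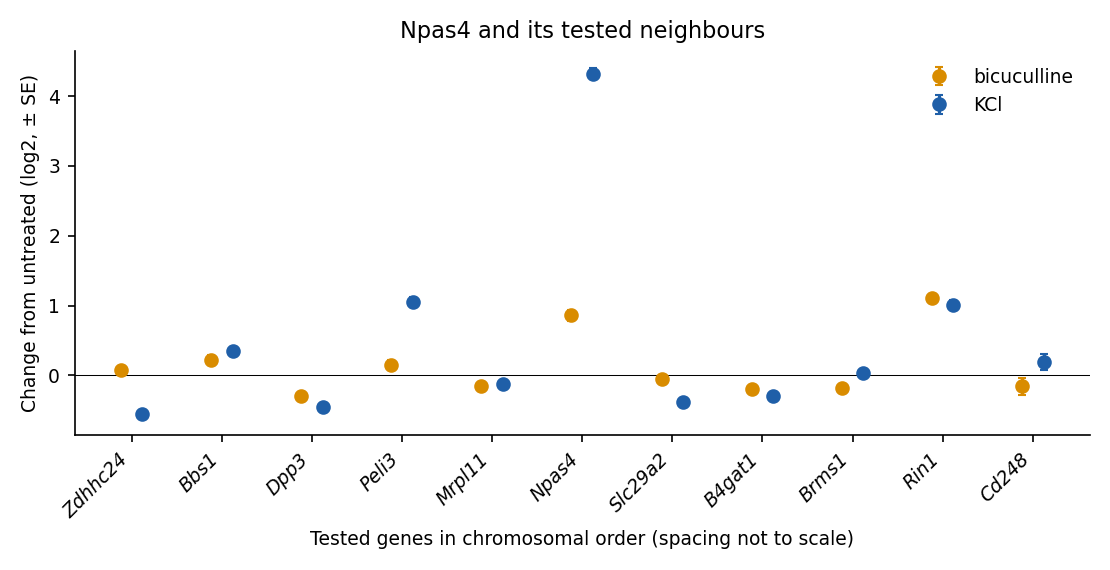
Difference from control in log2 with limma standard errors under bicuculline (orange) and KCl (blue) for Npas4 and the 5 tested genes on each side, in chromosomal order with spacing not to scale. Npas4 stands at 0.86 and 4.32, and its 10 neighbours lie between -0.56 and 1.11.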

How the data were processed

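One-colour arrays (Agilent, Cy3) gave 9 samples, 3 a group. The authors deposited processed signal intensity from Agilent Feature Extraction, background-subtracted (10.7.3.1 per the file headers, 10.5.1.1 per the submitters' processing notes), with raw median intensity of each spot and its background. On each array the deposited series table held the processed signal itself, at 45018 of 45018 features, so no normalization between arrays had been made.

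The log2 processed signal minus the array's 75th percentile over 43379 non-control spots was used, without outlier spots. Of 41174 probes, 26888 matched a symbol through RefSeq identifiers (table of GRCm38.p6), giving 18327 genes. A probe had to be well above background on all arrays of 1 or more groups and measured on at least 2 arrays a group, and the brightest stood for each of 14070 genes. limma 3.58.1 (R 4.3.3) was fitted to all 9 arrays with group as the only term, two-sided, with Benjamini-Hochberg adjustment within each comparison. Degrees of freedom were 6 residual and 1.75 prior, and precision is limited by the number of arrays. The fit was tested on simulated data. Normexp (offset 50) took the median spot signal as foreground, since a mean spot signal could not be used here.

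Npas4, the gene lists, tests and naming rule were chosen with earlier results of these data known. Named were Npas4, Arnt, Arnt2, Bdnf, up to 4 called members of each list with the largest change in a comparison, the 8 genes most like Npas4, the 3 genes next to it in the order of KCl minus bicuculline, and 5 neighbours a side. Other list members are named for completeness or after their values were seen.

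Same-numbered control and bicuculline arrays deviated together (correlations of 0.40, 0.26 and 0.74). Control with KCl gave -0.18, -0.15 and -0.57, and bicuculline with KCl -0.08, -0.19 and -0.57. Same-numbered control and bicuculline arrays always shared a slide, and the KCl array of that number lay on another. Pairing by replicate number and a difference between slides were thus not told apart by these correlations. Arrays of different number on slide 1 were not set against each other. Alternatives changed scaling, background correction, filter, outliers, probe choice, block and prior, or left out an array. Those with no scaling and with the block in 6 arrays were added after seeing the data.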

Additional observations from a re-analysis of the deposited data

How the results depend on the processing

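Npas4 kept its direction in all 24 alternatives, which drew on the same data from which it was chosen. Leaving out each array gave Npas4 differences of 0.80 to 0.94 (bicuculline minus control), 4.28 to 4.37 (KCl minus control) and 3.38 to 3.52 (KCl minus bicuculline), and 5280 to 6254, 9229 to 9976 and 8204 to 8983 genes called. In the same order the list counts were 4 to 6, 7 to 9 and 3 to 6 for the bHLH-PAS family, 7 to 7, 7 to 9 and 4 to 5 for the Npas4-dependent genes, 10 to 14, 16 to 18 and 14 to 17 for the calcium route, and 23 to 24, 23 to 24 and 21 to 22 for the activity-regulated factors. The cause of the changes below was not tested.

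Median scaling gave Npas4 4.16 and 3.33 for the KCl comparisons with control and bicuculline, 5 and 3 family members and 11 and 8 calcium genes, and put Epas1 (-0.058) and Arntl (-0.027) below control and Arntl (-0.018) below bicuculline. Quantile normalization put Npas2 (-0.089) and Epas1 (-0.058) below control under KCl. Normexp with 75th-percentile scaling called 823, 4135 and 2430 genes in place of 6241, 10103 and 9124, gave Npas4 4.02 and 3.21 under KCl, 1, 4 and 1 family members, 1, 3 and 0 calcium genes, 2 dependent genes and 14 factors between the treatments, and turned Hif3a under bicuculline (0.037), Arntl2 (0.99) and Epas1 (-0.039) under KCl, and Cacna1d between treatments (0.069). Normexp with quantile normalization gave Npas4 0.76, 3.99 and 3.23 and 11 calcium genes between treatments, and turned Hif3a (0.043), Npas2 (-0.066) and Epas1 (-0.016). Spike-in scaling called 2500 genes under bicuculline, gave Npas4 4.10 and 3.23, 1, 4 and 1 family members and 6, 11 and 5 calcium genes, and turned Epas1 (-0.12), Arntl (-0.093) and Mdm2 (-0.016) under KCl and Arnt (-0.089), Scg2 (-0.0054), Brms1 (-0.014) and Arntl (-0.12) between treatments. No filter gave 3 family members between treatments.

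With no scaling, 1609 genes were called under bicuculline and 2613 between treatments. Npas4 was at 0.53, 3.73 and 3.20, with 4 and 1 family members, 5 and 2 dependent genes in the KCl comparisons, 5, 11 and 1 calcium genes and 14 factors between treatments. Below 0 were 1700020D05Rik (-0.074), Fgd6 (-0.040), Fsd1l (-0.16), Dpf3 (-0.013) and Bbs1 (-0.11) under bicuculline, Arnt (-0.33), Npas1 (-0.18), Bbs1 (-0.24), Npas2 (-0.32), Epas1 (-0.48), Arntl (-0.45) and Mdm2 (-0.38) under KCl, and Arnt (-0.12), Arnt2 (-0.015), Scg2 (-0.035), Brms1 (-0.044) and Arntl (-0.15) between treatments. The median of all genes, -0.03, 0.02 and 0.07, moved by -0.33, -0.59 and -0.26 with no scaling, and in the KCl comparisons by -0.16 and -0.12 with median scaling and by -0.23 and -0.23 with spike-in scaling. The share of calls that were higher, 39.2%, 49.9% and 55.6%, ranged from 16.1% to 58.7%, from 9.13% to 49.9% and from 19.7% to 55.6% over the scalings and background corrections.

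The replicate block over 9 arrays left Npas4 at 0.86, 4.32 and 3.46 and called 5973, 9975 and 8975 genes. The block in the 6 arrays compared called 6510, 8918 and 7928 genes and 8 family members under bicuculline, and changed no other count of the lists by over 1.5 times.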
